A study of Mus musculus with 18 samples.

Results

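The 35 genes described here are 7 genes of the MYC transcription factor network and 28 genes of ribosome biogenesis, followed in sorted mouse skin epithelial cells across 2 ages and 3 cell fractions. They were chosen by name: every probe set whose only gene symbol is 1 of the 35 names was taken, which gave 72 of the 45101 probe sets on the array. Of these, 66 passed the filter on low signal, and all 35 genes stood among the 11569 genes tested. The mice were K5tTA x pTRE-H2B-GFP double transgenics from an FvB and a CD1 parent, in which a keratin 5 promoter drives a histone-bound GFP that doxycycline in the food, at 1 g per kg, switches off, so that each later division dilutes it 2-fold. All 6 groups carry both transgenes and all received doxycycline, either from postnatal day (PD) 18 to PD21 or from PD22 to PD25. At each age, CD34 and α6-integrin staining separated bulge from non-bulge cells, and bulge cells were split by retained GFP into those with 0 divisions (undivided) and those with 1 to 2 divisions (divided). Each group held 3 Affymetrix MOE 430 2.0 arrays, 1 per mouse, and per the titles the 3 fractions at one age were sorted from the same mice, while the mice of PD21 and PD25 were different animals. The keratin 5 promoter limits the label to basal epithelial cells, and the division count covers only the days on doxycycline.

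MYC, MYCN and MYCL are related transcription factors that bind DNA as partners of MAX, and the MXD and MXI proteins take MAX to the same sites as repressors. The sites centre on the E-box, and genes for making ribosomes are among the best known MYC targets in many tissues. Ribosomes are assembled in the nucleolus, where RNA polymerase I transcribes ribosomal RNA, small nucleolar ribonucleoproteins modify it, and assembly factors build the small and the large subunit. In the hair follicle, the bulge holds the slowly cycling stem cells, and raised MYC in epidermis is known to drive cells out of the stem cell pool.

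Because the MYC family acts through the E-box, the promoters of the 35 genes were searched for the letters CACGTG, which read the same on both strands, from 250 bases before to 50 after each start site in RefSeq's promoters (build GRCm38.p6). Of the 35 genes, 29 had an entry, with 39 promoters, and 8 of those promoters held the letters, which is 20.5%, against 7.15% of all 32851 promoters. Counted by gene, 8 of 29 held them (27.6%), against 8.09% of 27025 genes. The windows of 30 bases below show where they lie in these 8 promoters, with the 6 letters in capitals.
Ltv1 (chr10:13193092-13193121, minus strand): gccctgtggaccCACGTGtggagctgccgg
Max (chr12:76962234-76962263, minus strand): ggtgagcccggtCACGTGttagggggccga
Mxd4 (chr5:34187912-34187941, minus strand): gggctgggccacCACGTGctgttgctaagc
Nop2 (chr6:125131811-125131840, plus strand): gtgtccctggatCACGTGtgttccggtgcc
Pes1 (chr11:3963965-3963994, plus strand): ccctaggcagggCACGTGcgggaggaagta
Tsr1 (chr11:74898092-74898121, plus strand): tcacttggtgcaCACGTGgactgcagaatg
Utp20 (chr10:88826765-88826794, minus strand): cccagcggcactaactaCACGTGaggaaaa
Wdr43 (chr17:71616220-71616249, plus strand): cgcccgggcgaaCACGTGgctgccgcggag
The letters began 219, 60 and 3 bases before the start in Mxd4, Nop2 and Max. They began 3, 18, 25, 29 and 38 bases after it in Pes1, Wdr43, Tsr1, Ltv1 and Utp20. A match describes these letters only, and whether any MYC protein binds there was not measured. The 100 bases before the start of Mycl and Mycn, the 2 network genes that differed most between the cell fractions, are given for comparison in lower case throughout, because neither promoter held the letters.
Mycl (chr4:122995831-122995930, plus strand): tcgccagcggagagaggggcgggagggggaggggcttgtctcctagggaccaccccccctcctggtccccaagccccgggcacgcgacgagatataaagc
Mycn (chr12:12941837-12941936, minus strand): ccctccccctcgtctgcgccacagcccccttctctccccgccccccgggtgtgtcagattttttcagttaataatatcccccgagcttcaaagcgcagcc

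Values below are log2(signal + 16), differences are log2 fold changes ± the standard error of the limma fit with 3 mice per group, and a gene passed at a Benjamini-Hochberg adjusted p under 0.05 over all 11569 genes. The signals of all arrays had been scaled to a trimmed mean of 500, and array medians lay between 60.3 and 116.6. The 18 arrays fell into 2 sets of 9 by the width of their signal range, one with a 99.9th percentile of 34006 to 43700 (the wide set) and one with 16056 to 22141 (the narrow set). Whole mice lay in either set, 2 PD21 mice and 1 PD25 mouse in the wide set and the rest in the narrow one, and the labels name no batch, so values within each set stand beside the main results. The wide set holds 1 mouse of PD25 and the narrow set 1 of PD21, so differences between fractions at those ages there compare 1 array with 1 array and are given as values with no test. The sorted fractions carried their markers: Cd34 exceeded its non-bulge level in undivided bulge by 8.21 ± 0.46 at PD21 and by 7.42 ± 0.46 at PD25, and all 6 basal keratinocyte markers stood above the array median on all 18 arrays. In divided bulge at PD21, Cd34, the gene of a surface protein used for the sort, differed from undivided bulge by -3.80 ± 0.46, and the bulge transcription factor gene Lhx2 by -2.16 ± 0.25. A second limma fit took the mouse as a block, and its values are named as those of the blocked fit. In bulk RNA of sorted cells, fewer cells of a type and less RNA per cell cannot be told apart.

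Mycl fell steeply in bulge cells, with 1 exception. In non-bulge cells at PD21 its values were 10.31, 10.29 and 11.10, and in the undivided bulge of the same mice 7.22, 8.38 and 8.69. Every undivided array was thus below every non-bulge array, with a difference of -2.47 ± 0.42, or 5.55-fold (adjusted p = 0.000212). At PD25 the non-bulge values were 10.20, 9.79 and 10.51, against 7.74, 7.72 and 8.83 in undivided bulge. Mycl was again lower without overlap (-2.07 ± 0.42, adjusted p = 0.00136).

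The exception was the divided bulge at PD21, where Mycl measured 10.31, 9.89 and 10.64, within the range of non-bulge cells or just under it. The difference from undivided bulge was 2.18 ± 0.42, a 4.54-fold higher level (adjusted p = 0.00121), and that from non-bulge cells was -0.29. In divided bulge at PD25 the values were 8.14, 8.65 and 7.28, all below the non-bulge arrays of that age (-2.15 ± 0.42, adjusted p = 0.00128). Divided bulge at PD21 was higher on every array, and the step from PD21 to PD25 in divided cells was -2.26 ± 0.42 (adjusted p = 0.00117). Taken directly, the change of the division effect between the ages was -2.25 ± 0.60, which missed the threshold (adjusted p = 0.0612) and passed once the mouse was fitted as a block (adjusted p = 0.0237).

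The Mycl differences were of similar size in both sets of arrays. Undivided against non-bulge was -2.50 in the wide set and -2.41 in the narrow set at PD21, and -2.47 and -1.88 at PD25. Divided against undivided at PD21 was 2.30 and 1.95, divided against non-bulge at PD25 -2.06 and -2.19, and PD25 against PD21 in divided cells -1.96 and -2.67. Each set holds only 1 mouse of 1 of the ages, so the age difference within a set is given with no test. In undivided against non-bulge cells all 3 Mycl probe sets had the same sign. The other 2 gave -1.86 ± 0.52 and -1.63 ± 0.57 at PD21, and -1.95 ± 0.52 and -2.79 ± 0.57 at PD25. In divided bulge at PD21 the first of these 2 measured 8.88, 9.07 and 9.10, against 8.74, 8.76 and 8.61 in non-bulge cells. Every divided array was thus higher on it, unlike on the probe set used. On the second the 2 groups overlapped.

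Mycl moved opposite to bulge markers such as Cd34 and Lhx2, so the marker lists are given beside it. The summed signal of the 11 bulge marker genes, all of them tested, ranged from 69636 to 144780 in undivided bulge at PD21, from 43197 to 78126 in divided bulge and from 34600 to 60505 in non-bulge cells. At PD25 it ranged from 62286 to 111681 in undivided bulge, from 61588 to 111310 in divided bulge and from 31421 to 73821 in non-bulge cells. Krt15, the brightest of the 11 genes, weighs most in these sums. In undivided against non-bulge cells it differed by only 0.52 ± 0.55 at PD21 and 0.15 ± 0.55 at PD25. Itga6 means were also close, at 13.12 against 13.14 and 12.86 against 12.96. Lhx2 differed by 4.11 ± 0.25 and 4.19 ± 0.25, and Sox9 by 3.07 ± 0.27 and 2.71 ± 0.27. Of the 8 dermal fibroblast markers, 5 were tested and Pdgfra and Lum were never above an array's median. The fibroblast list summed to between 16296 and 30198 in undivided bulge at PD21, to between 6502 and 9801 in divided bulge and to between 3573 and 5227 in non-bulge cells. Of the 6 sebaceous gland markers, 5 were tested and Mc5r was never above the median. Their summed signal went the other way at PD21, at 6689 to 10055, 13137 to 19218 and 15857 to 21447. That sum rests mostly on Scd1, with means of 12.84 in undivided bulge and 13.98 in non-bulge cells. Pparg and Elovl3 were also lower in undivided bulge (5.19 against 7.97 and 7.27 against 8.37). Scd3 and Fasn were slightly higher there (7.64 against 7.02 and 9.62 against 9.49). At PD25 the sebaceous sums overlapped between undivided bulge (12270 to 14274) and non-bulge cells (10457 to 16308), and were 9152 to 10413 in divided bulge. At PD25 the fibroblast list summed to between 9330 and 11539 in undivided bulge, 7148 and 17062 in divided bulge and 4274 and 8444 in non-bulge cells. The 31 tested proliferation genes had a median of -0.54 in undivided bulge against non-bulge at PD21 and 0.49 in divided against undivided bulge, the same signs as Mycl, but a median of 0.48 in undivided bulge against non-bulge at PD25, the opposite sign. The part of any of these cell types, or of proliferation, in the Mycl values was not tested.

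Mycn, the family member best known from embryonic and neural cells, ran opposite to Mycl in undivided bulge, on the probe set standing for it. In divided bulge at PD21, where Mycl was near its non-bulge level, Mycn stayed near its undivided level (means of 7.19 and 7.58). Its signal was low in non-bulge cells, with log2 values of 4.49, 4.36 and 6.34 at PD21 and 5.61, 5.88 and 5.58 at PD25. Undivided bulge gave 6.46, 8.56 and 7.71 at PD21 and 8.69, 8.36 and 6.92 at PD25. Every undivided array was above every non-bulge array of its age, but the spread among bulge mice was wide. The probe set exceeded the array median on 11 of the 18 arrays, none of them non-bulge, and so passed the filter only through bulge arrays. The size and the adjusted p of each difference below rest on non-bulge signals too low to give a firm level.

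The Mycn difference between undivided bulge and non-bulge cells was 2.51 ± 0.75 at PD21 (adjusted p = 0.0303) and 2.30 ± 0.75 at PD25, which missed the threshold (adjusted p = 0.0513) and passed in the blocked fit (adjusted p = 0.016). Divided bulge gave 6.82, 6.75 and 7.99 at PD21 and 6.29, 9.66 and 7.65 at PD25. These arrays, too, all lay above the non-bulge arrays, and neither difference passed (2.12 ± 0.75, adjusted p = 0.787, and 2.17 ± 0.75, adjusted p = 0.0796; in the blocked fit, 0.265 and 0.0269). The PD21 call rested on single arrays: it was lost without non-bulge mouse 1 (adjusted p = 0.124) or mouse 2 (0.13) and without undivided mouse 2 (0.146) or mouse 3 (0.0756). With a pseudocount of 1 in place of 16 the difference was 3.63 and with 64 it was 1.53 (adjusted p = 0.0722). Within the wide set it was 3.08 (adjusted p = 0.0237) and within the narrow set 1.37. Another Mycn probe set that passed the filter differed by 0.71 ± 0.77 at PD21 and 0.01 ± 0.77 at PD25 in the same comparison, and the third was at or below the median on all arrays.

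**Figure D1:**
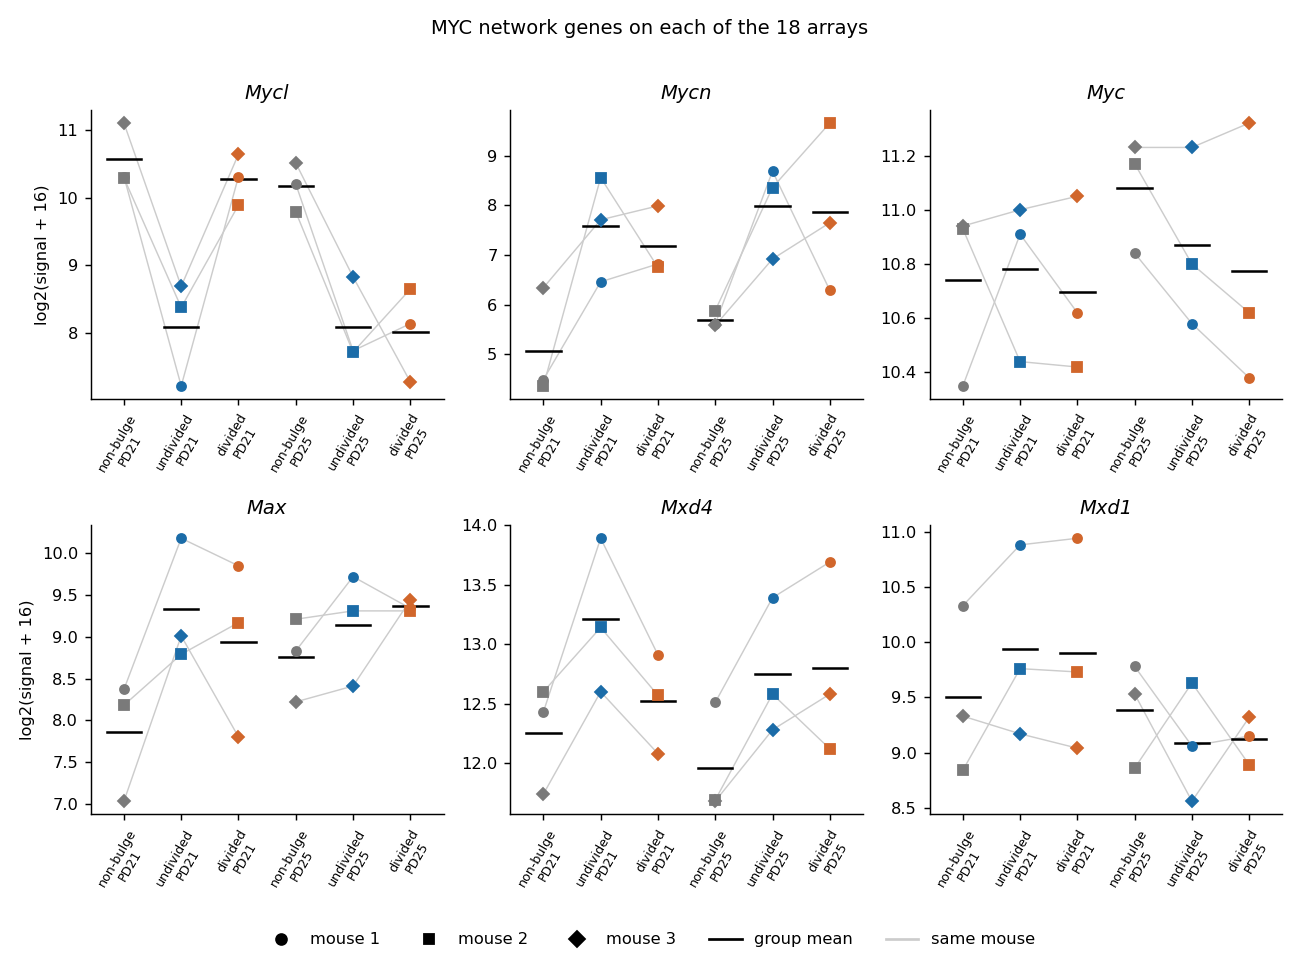
Levels of 6 MYC network genes, as log2(signal + 16), on each of the 18 arrays, with 3 mice per group shown by symbol, group means as black bars and grey lines joining the fractions of 1 mouse. Mycl stood near 10 in non-bulge cells and in divided bulge at PD21 and near 8 in the other bulge groups, Mycn was lowest in non-bulge cells, and the Myc axis spans only about 1 unit.

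Myc itself was steady. Across the 6 groups its means lay between 10.70 and 11.08, a range of 0.38. In non-bulge cells it measured 10.35, 10.93 and 10.94 at PD21 and 10.84, 11.17 and 11.23 at PD25. Undivided bulge overlapped these at both ages, with 10.91, 10.44 and 11.00 at PD21 and 10.58, 10.80 and 11.23 at PD25. None of the Myc differences passed, and undivided against non-bulge was 0.04 ± 0.27 at PD21 and -0.21 ± 0.27 at PD25.

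The partner and repressor genes did not pass in the fit by group alone. Max, the obligate partner of the family, measured 8.37, 8.18 and 7.03 in non-bulge cells at PD21 and 10.18, 8.79 and 9.01 in undivided bulge, without overlap. The difference of 1.47 ± 0.49 did not pass (adjusted p = 0.0586) and did in the blocked fit (adjusted p = 0.00662), with the mean of probe sets (0.0484) and with the set of arrays as a term (0.0188). At PD25 it was 0.40 ± 0.49, and the groups overlapped.

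Mxd4, which encodes a MAX-binding repressor, measured 12.43, 12.60 and 11.74 in non-bulge cells at PD21, 13.89, 13.14 and 12.60 in undivided bulge and 12.91, 12.57 and 12.08 in divided bulge. Within each mouse the undivided fraction was the highest of the 3, although the highest non-bulge and the lowest undivided array were equal after rounding. At PD25 the same gene gave 12.51, 11.69 and 11.68 in non-bulge cells, 13.39, 12.58 and 12.28 in undivided bulge and 13.69, 12.12 and 12.58 in divided bulge. Here both bulge fractions of each mouse were above its non-bulge fraction. None of these differences passed in the fit by group alone. In the blocked fit, undivided against non-bulge passed at PD21 (0.96, adjusted p = 0.000519), divided against undivided at PD21 (-0.69, adjusted p = 0.0113), undivided against non-bulge at PD25 (0.79, adjusted p = 0.00334) and divided against non-bulge at PD25 (0.83, adjusted p = 0.00247). With the set of arrays as a term these 4 passed as well (adjusted p = 0.000908, 0.0182, 0.00562 and 0.00417, in the same order), and with the mean of probe sets 3 of them did (adjusted p = 0.018, 0.0452 and, for divided bulge at PD25, 0.0218). Mxi1 and Mxd1, the genes of the other MAX-binding repressors followed, overlapped between groups on the probe sets standing for them. On these, Mxi1 group means lay between 10.55 and 10.91 and Mxd1 means between 9.09 and 9.94. The other Mxi1 probe set past the filter did not overlap between undivided bulge and non-bulge cells at PD21. It ranged from 10.57 to 10.94 in undivided bulge and from 9.61 to 10.15 in non-bulge cells. At PD25 the same fractions overlapped on it.

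The 28 ribosome biogenesis genes shared 1 pattern: their highest group was non-bulge at PD25. For 23 of 28 this group had the highest of the 6 means, as it did for 17.3% of all genes. The 5 others were Ncl, Npm1, Polr1a and Bop1, highest in divided bulge at PD21, and Ubtf, highest in divided bulge at PD25. The lowest mean fell in non-bulge cells at PD21 for 9 genes (32.1%, against 19.8% of all genes) and in undivided bulge at PD21 for 8 (28.6%, against 22.5%).

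**Figure D2:**
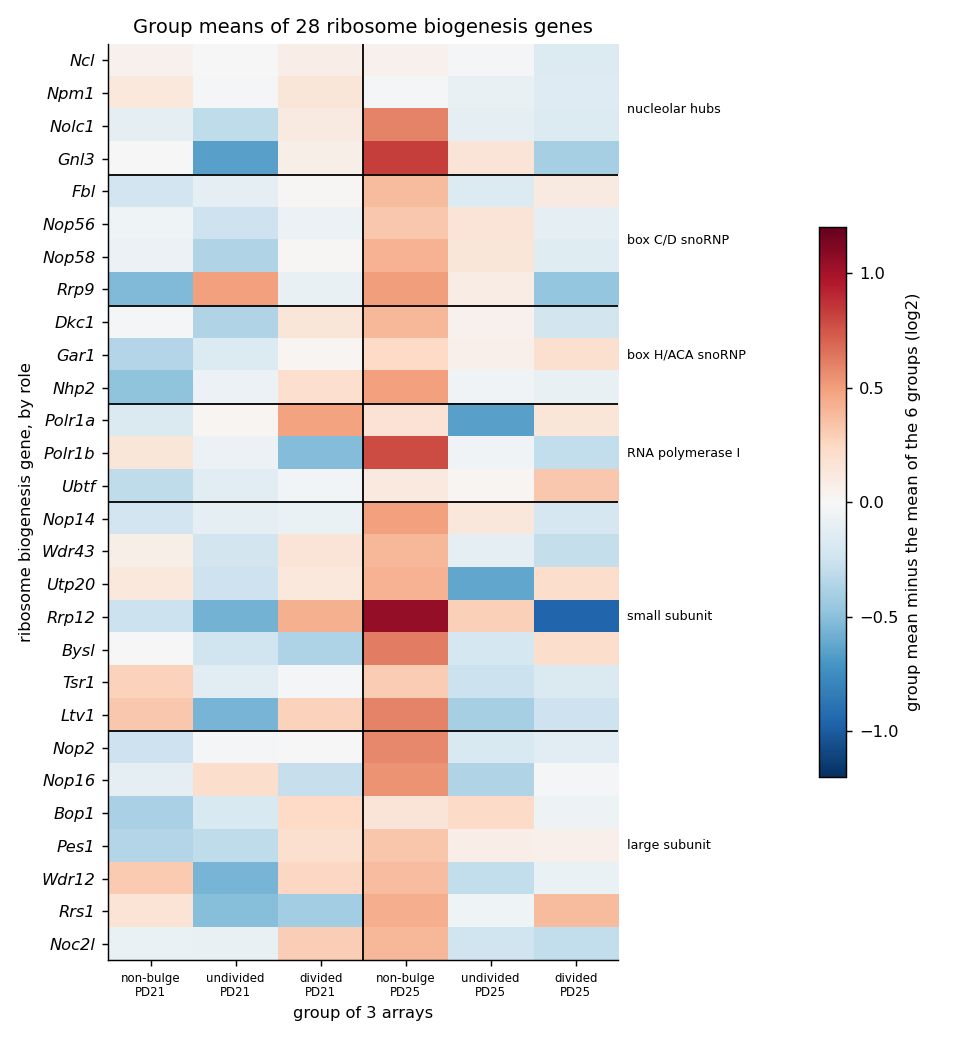
Group means of the 28 ribosome biogenesis genes, each as its difference from the mean of its 6 groups (log2, colour), in rows by role and in columns by group of 3 arrays. The non-bulge PD25 column is the warmest for 23 of the 28 genes.

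Undivided bulge at PD25 was compared with non-bulge cells of the same mice to see how bulge cells that had not divided differ from the rest of the sorted epithelium. Of the 35 genes, 2 passed, both lower, where 10.5% of all genes passed (4.83% lower). The shift was broad and small: 27 of the 28 ribosome genes lay below 0, with a median of -0.54, against a median of -0.02 over all genes, of which 52% lay below 0. In 20 of the 35 genes the undivided fraction was lower in each of the 3 mice (57.1%, against 21.8% of all genes), and in 10 the groups did not overlap (28.6%, against 11.7%). Mouse by mouse, the median over the 35 genes was -0.67, -0.54 and -0.04, so that 1 mouse hardly showed it.

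Divided bulge at PD25 gave much the same values against the same non-bulge arrays, and since both comparisons share those arrays they do not count as independent. Of the 35 genes, 4 passed, all lower, where 8.87% of all genes passed (3.25% lower). Again 27 of 28 ribosome genes lay below 0, with a median of -0.52 against -0.02 over all genes, of which 51.8% lay below 0. The divided fraction was lower in each mouse for 19 of the 35 (54.3%, against 20.8% of all genes), and 13 did not overlap (37.1%, against 10.1%). By mouse the median over the 35 genes was -0.65, -0.41 and -0.31.

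In the blocked fit, 7 of the 35 genes passed for undivided and 9 for divided bulge at PD25, where 14.7% and 12.3% of all genes did. Within the wide set the median over the 28 genes was -0.71 for either fraction, and within the narrow set -0.40 for undivided and -0.43 for divided bulge. Divided and undivided bulge at PD25 were close to each other, with a median of -0.05 over the 28 genes and 0 of 35 genes passing, where 0% of all genes passed. At an unadjusted p under 0.05, 2 of 35 did (5.71%, against 5.49%), Polr1a and Utp20, both higher in divided bulge, and in the blocked fit 0 of 35 passed, where 0.0864% did. Utp20, a small subunit processing factor, measured 8.27, 9.66 and 9.54 in undivided bulge, against 9.69, 9.99 and 10.32 in divided bulge, a difference of 0.84 ± 0.38 (adjusted p = 0.863).

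Among the nucleolar genes, Gnl3 moved most. It encodes nucleostemin, a GTP-binding nucleolar protein named for its presence in stem cells. Its values at PD25 were 11.45, 11.30 and 11.01 in non-bulge cells, 10.50, 10.20 and 10.99 in undivided bulge and 9.61, 10.20 and 10.26 in divided bulge. Both bulge fractions lay below the non-bulge arrays without overlap, though undivided mouse 3 came close to the lowest of them. Divided bulge was 1.23 ± 0.27 lower, or 2.35-fold (adjusted p = 0.0037), and undivided bulge differed by -0.69 ± 0.27 (adjusted p = 0.127). At PD21 the order of the bulge fractions was the other way: Gnl3 measured 9.59, 9.53 and 10.18 in undivided bulge, against 10.80, 10.28 and 10.40 in divided bulge, a difference of 0.72 ± 0.27 that did not pass (adjusted p = 0.11).

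Nolc1, a chaperone of small nucleolar ribonucleoproteins, measured 11.55, 11.65 and 11.44 in non-bulge cells at PD25 and 10.61, 11.11 and 10.64 in divided bulge. All divided arrays were lower, by 0.76 ± 0.24 (-0.76, adjusted p = 0.0465). In undivided bulge, at 10.81, 10.63 and 11.06, the difference of -0.71 ± 0.24 missed the threshold (adjusted p = 0.0565) and passed in the blocked fit (adjusted p = 0.0398). With the mean of its probe sets in place of the brightest, divided against non-bulge was -0.34 (adjusted p = 0.612). The abundant nucleolar proteins' genes Ncl (nucleolin) and Npm1 (nucleophosmin) moved little, with undivided differences of -0.07 ± 0.33 and -0.07 ± 0.50 and divided ones of -0.21 ± 0.33 and -0.13 ± 0.50. Npm1 varied more between mice than between fractions, from 13.62 to 15.10 in non-bulge cells at PD21. That spread followed the array sets: every wide-set array measured 14.71 or more and every narrow-set array 14.30 or less.

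**Figure D3:**
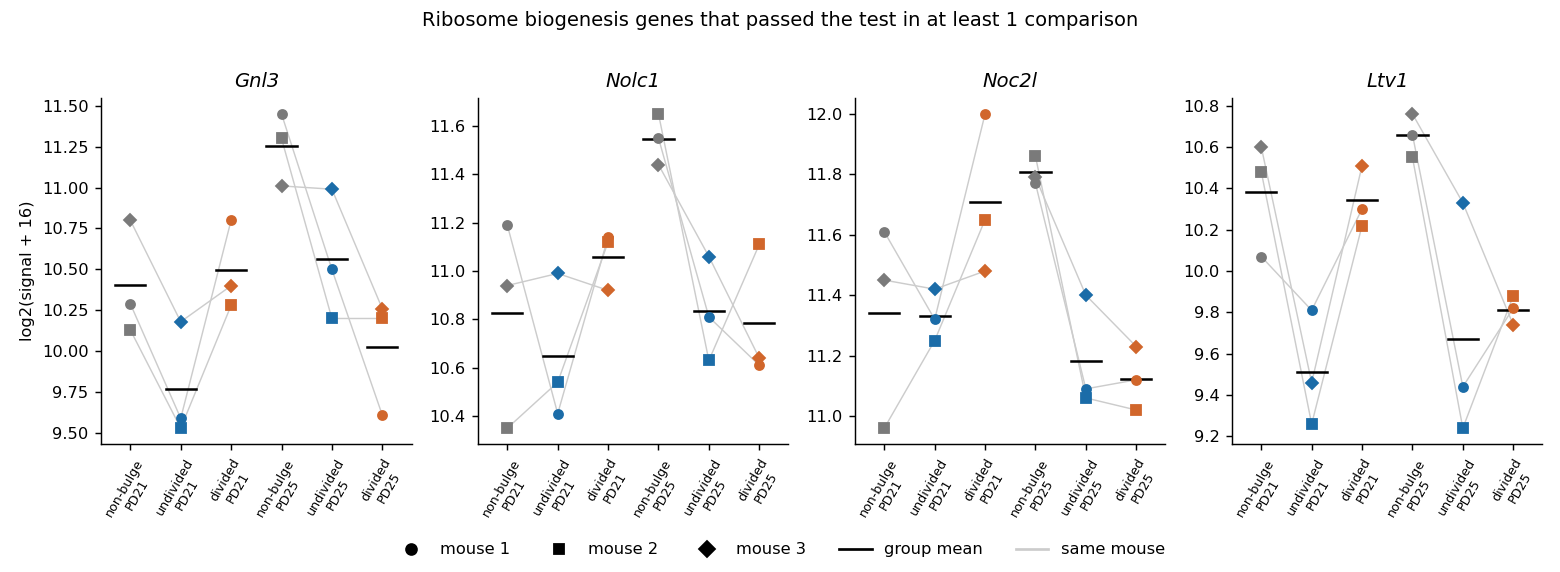
The 4 ribosome biogenesis genes that passed in at least 1 comparison, as log2(signal + 16) on each of the 18 arrays, with symbols for mice, black bars for group means and grey lines joining the fractions of 1 mouse. In all 4 genes the non-bulge PD25 mean was the highest of the 6, and in Ltv1 the undivided bulge lay below the non-bulge cells at both ages.

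The small nucleolar ribonucleoprotein genes lay below 0 together without a single call. Most of these particles guide RNA methylation (box C/D) or pseudouridylation (box H/ACA). The box C/D genes were Fbl, for the methyltransferase fibrillarin, Nop56, Nop58 and Rrp9. The box H/ACA genes were Dkc1, for the pseudouridine synthase dyskerin, Gar1 and Nhp2. In divided bulge at PD25 the 4 box C/D genes ranged from -0.98 to -0.27 and the 3 box H/ACA genes from -0.62 to -0.04. Dkc1 was nearest to the threshold. It measured 11.60, 11.76 and 11.41 in non-bulge cells and 10.90, 11.32 and 10.68 in divided bulge, which do not overlap, and differed by -0.62 ± 0.22 (adjusted p = 0.0973).

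RNA polymerase I genes were mixed. Polr1a encodes its largest subunit, Polr1b the second largest, and Ubtf the factor that opens ribosomal DNA for it. Polr1a measured lower in undivided bulge at PD25, without overlap or a call (7.54, 8.33 and 8.29, against 8.99, 8.79 and 8.85 in non-bulge cells, a difference of -0.83 ± 0.37), and overlapped in divided bulge (8.68, 8.93 and 8.94, a difference of -0.03 ± 0.37). Polr1b differed by -0.82 ± 0.48 in undivided and -1.07 ± 0.48 in divided bulge, and Ubtf by -0.10 ± 0.24 and 0.20 ± 0.24. None of the 3 passed in any comparison.

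In the small subunit pathway, all 7 genes lay below 0 in both bulge fractions at PD25. Ltv1, an export and assembly factor of the small subunit, measured 10.66, 10.55 and 10.76 in non-bulge cells, 9.44, 9.24 and 10.33 in undivided bulge and 9.82, 9.88 and 9.74 in divided bulge. No bulge array reached the non-bulge range. Undivided bulge was lower by 0.99 ± 0.27 (-0.99, adjusted p = 0.0153), and divided bulge differed by -0.84 ± 0.27, just over the threshold (adjusted p = 0.0503, and 0.0402 in the blocked fit). Leaving out undivided mouse 1 or mouse 2 or non-bulge mouse 3 of PD25 ended the first call, as did fitting only the groups compared (adjusted p = 0.0503). The difference was -1.22 in the wide set and -0.87 in the narrow set, where it did not pass (adjusted p = 0.243).

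Ltv1 was also lower in undivided bulge at PD21, at 9.81, 9.26 and 9.46, against 10.07, 10.48 and 10.60 in non-bulge cells. The groups did not overlap, and the difference was -0.88 ± 0.27 (adjusted p = 0.0337), a call that ended without non-bulge mouse 2 or 3 or undivided mouse 2 or 3 of PD21. It also ended with no filter, no variance trend or only the groups compared (adjusted p = 0.0563, 0.0556 and 0.0535). Within the wide set the difference was -0.74 (adjusted p = 0.22) and within the narrow set -1.14. Divided bulge at PD21 was back in the non-bulge range, at 10.30, 10.22 and 10.51, which was 0.83 ± 0.27 above undivided bulge (adjusted p = 0.0564, and 0.0417 in the blocked fit). It thus ran the way of Mycl at PD21, with a smaller amplitude.

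The widest single value among the ribosome genes came from Rrp12, a large repeat protein of pre-ribosome export. In non-bulge cells at PD25 it measured 8.83, 8.61 and 8.63, and in divided bulge 4.29, 8.20 and 7.55. All divided arrays were lower, and 1 of them stood far from the others. The difference of -2.01 ± 0.76 did not pass (adjusted p = 0.118), and did in the blocked fit (adjusted p = 0.0276). That array, divided bulge of PD25 mouse 1, also had the highest ratio of 3′ to 5′ Gapdh signal of the 18 (11.6, where the others went down to 3.1) and the lowest array weight (0.527). Within the wide set, which holds that array, the difference was -4.53, and within the narrow set -0.75. The part of RNA quality in it was not tested. Of the remaining small subunit genes Nop14, Wdr43, Utp20, Bysl and Tsr1, none passed, and divided against non-bulge at PD25 ranged from -0.70 to -0.20. In the blocked fit, Tsr1 passed in undivided bulge (-0.56, adjusted p = 0.0185) and Wdr43 in divided bulge (-0.67, adjusted p = 0.0356).

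In the large subunit pathway, Noc2l passed. It encodes a nucleolar protein of pre-60S maturation that also inhibits histone acetyltransferases. Its non-bulge values at PD25 were tight, at 11.77, 11.86 and 11.79, and divided bulge gave 11.12, 11.02 and 11.23. Every divided array was lower, by 0.68 ± 0.21 (-0.68, adjusted p = 0.043). Undivided bulge, at 11.09, 11.06 and 11.40, differed by -0.62 ± 0.21 (adjusted p = 0.0624, and 0.0233 in the blocked fit).

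The genes of the PeBoW complex, Pes1, Bop1 and Wdr12, which acts in large subunit processing, did not move as 1. In undivided bulge at PD25 Pes1 differed by -0.25 ± 0.25, Bop1 by 0.08 ± 0.34 and Wdr12 by -0.66 ± 0.32. Wdr12 measured 9.50, 9.47 and 9.46 in that fraction, against 10.01, 10.41 and 10.01 in non-bulge cells, without overlap and without passing (adjusted p = 0.25). Of the last 3, Nop2, an RNA methyltransferase, differed by -0.76 ± 0.37, Nop16 by -0.90 ± 0.45 and Rrs1 by -0.49 ± 0.46, and none passed.

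The 3 ribosome calls in divided bulge at PD25 differed in how firmly they stood. Gnl3 passed in all 18 fits that each left out 1 array, Noc2l in 8 and Nolc1 in 6. Leaving out any 1 of the 3 non-bulge PD25 arrays ended the Nolc1 and the Noc2l call, as did leaving out divided mouse 1 or 3 of PD25, and for Noc2l also divided mouse 2. Leaving out some arrays of other groups, which enter through the pooled spread, also ended them. Within the sets, Gnl3 differed by -1.85 in the wide and -0.92 in the narrow set, Nolc1 by -0.93 and -0.67 and Noc2l by -0.65 and -0.70. The Gnl3 call ended within the narrow set (adjusted p = 0.151). The wide-set value compares 1 array with 1, and its divided array is the one with the highest Gapdh ratio and the lowest weight.

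The comparison of PD25 with PD21 in non-bulge cells asked whether the same cell class changes between the ages. Here 26 of the 28 ribosome genes lay above 0, with a median of 0.51 against 0.02 over all genes, and 0 of 35 genes passed, where 0.0432% of all genes passed. At an unadjusted p under 0.05, 10 of the 35 did (28.6%, against 4.42% of all genes), and with the mouse as a random block 0 did (0.0432%). In 16 of the 35 the PD25 arrays were all above the PD21 arrays (45.7%, against 4.93% of all genes), and in 0 they were all below (3.93%). The 16 were Nolc1, Gnl3, Fbl, Nop56, Dkc1, Gar1, Nhp2, Polr1b, Ubtf, Nop14, Rrp12, Nop2, Nop16, Bop1, Pes1 and Noc2l, and none belongs to the MYC network.

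Nhp2 had the smallest adjusted p of the 35 genes there, at 0.963. It measured 11.43, 10.50 and 11.17 at PD21 and 11.81, 12.47 and 11.73 at PD25, a difference of 0.97 ± 0.30. Gnl3 measured 10.29, 10.13 and 10.80 at PD21 and differed by 0.85 ± 0.27. Pes1, at 10.42, 10.50 and 10.85 and then 11.39, 11.43 and 11.00, differed by 0.68 ± 0.25. In all 3 genes the ages did not overlap, and none of the 3 passed.

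The 2 ages hold different shares of the wide and narrow sets, so the within-set medians matter here: over the 28 genes they were 0.55 in the wide and 0.39 in the narrow set. The small subunit genes differed between the sets, with a median of 0.78 in the wide and 0.05 in the narrow set. Since this comparison uses the same non-bulge PD25 arrays as those of both bulge fractions at that age, the same 3 arrays enter all 3 results. Between PD21 and PD25, undivided bulge had a median of 0.13 over the 28 genes and divided bulge of -0.20. Within the wide and the narrow set these medians were -0.07 and 0.18 in undivided bulge, and -0.38 and -0.03 in divided bulge. Of the 35 genes 0 passed in undivided bulge, where 0.0951% of all genes did (1 at an unadjusted p under 0.05, against 8.03%, and 0 with the mouse as a random block, against 0.19%). In divided bulge 1 passed, Mycl, where 7.84% of all genes did.

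**Figure D4:**
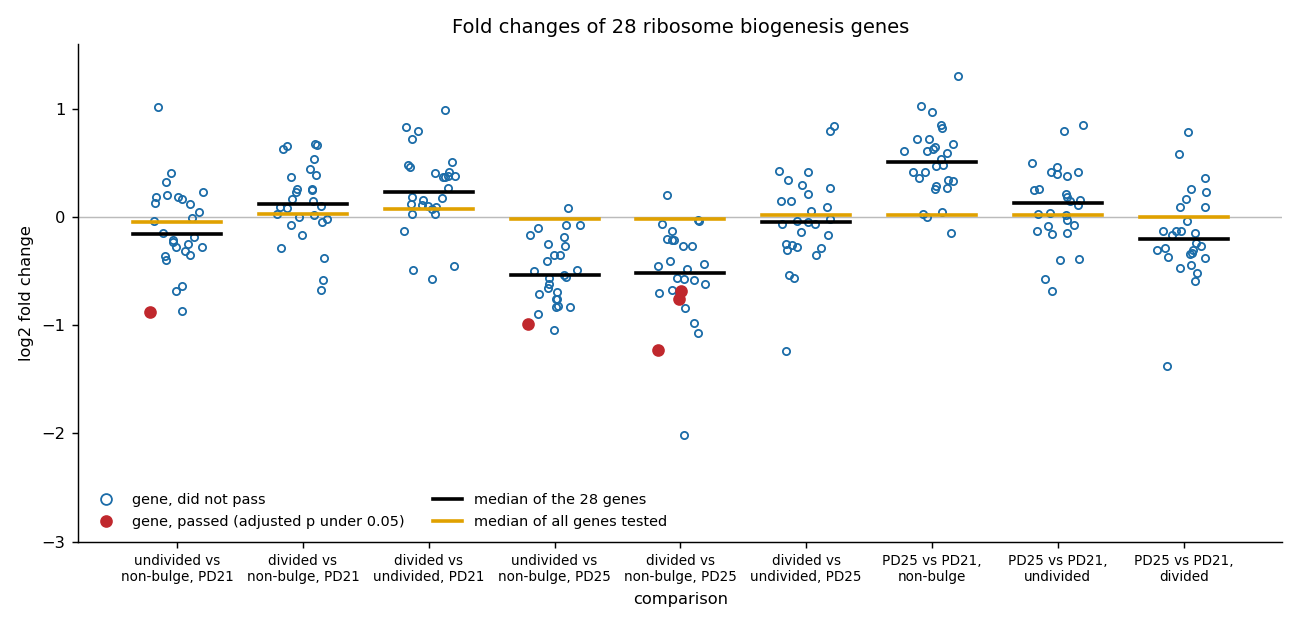
Log2 fold changes of the 28 ribosome biogenesis genes in 9 comparisons, 1 point per gene, filled red where the gene passed, with the median of the 28 (black) and of all genes tested (gold). The medians were -0.54 and -0.52 in the bulge fractions against non-bulge at PD25 and 0.51 for PD25 against PD21 in non-bulge cells, while the all-gene medians stayed between -0.05 and 0.07.

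At PD21 the ribosome medians of the bulge fractions lay nearer to those of all genes. For undivided bulge against non-bulge cells 3 of the 35 genes passed (Mycn higher, Mycl and Ltv1 lower), where 11% of all genes did, and the median of the 28 ribosome genes was -0.16 against -0.05 over all genes. Mycn entered the test only through bulge arrays, so its call is counted here with the limits given above. The groups did not overlap in 5 lower genes (14.3%, against 13.3% of all genes) and 4 higher ones (11.4%, against 12.8%), close to the share in all genes. Besides the 3 calls these were Dkc1, Tsr1 and Wdr12 on the lower side and Max, Mxd4 and Rrp9 on the higher. In the blocked fit 6 of the 35 passed, where 16.6% of all genes did, the added ones being Max, Mxd4 and Wdr12 (-0.87, adjusted p = 0.0479).

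Divided bulge against non-bulge cells at PD21 had a ribosome median of 0.12 against 0.03, and 0 of 35 genes passed, where 0.182% of all genes did. At an unadjusted p under 0.05, 4 did (11.4%, against 4.21%), and in the blocked fit 0 passed (0.424% of all genes). Divided against undivided bulge at PD21 had 24 of 28 ribosome genes above 0, with a median of 0.23 against 0.07 over all genes. Of the 35 genes 1 passed, Mycl, where 8.28% of all genes did, and in the blocked fit 3 passed, Mycl, Ltv1 and Mxd4, where 13.3% did. In 7 genes, Mycl, Gnl3, Dkc1, Polr1a, Ltv1, Wdr12 and Noc2l, the divided arrays were all higher (20%, against 13% of all genes).

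The change of each bulge effect between the ages was tested directly. For divided bulge against non-bulge cells, 27 of the 28 ribosome genes lay below 0, with a median of -0.67 against -0.04 over all genes, and 0 of 35 passed, where 1.63% of all genes did. At an unadjusted p under 0.05, 10 did (28.6%, against 11.8%). In the blocked fit 2 passed, Gnl3 (-1.32, adjusted p = 0.0471) and Noc2l (-1.05, adjusted p = 0.0225), where 3.9% of all genes did. For undivided bulge the median was -0.34 against 0, and 0 of 35 passed, where 0% of all genes did (2 at an unadjusted p under 0.05, against 3.86%, and 0 with the block, against 0.0173%). For the effect of division, 0 of 35 passed, where 1.18% of all genes did (4 at an unadjusted p under 0.05, against 12.8%, and 1, Mycl, with the block, against 4.37%).

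Another 113 ribosome biogenesis genes lay on the same side of 0 at PD25, and fewer of them passed than of all genes. Of these 113 genes tested (119 listed), 103 lay below 0 in undivided and 99 in divided bulge at PD25, with medians of -0.33 and -0.30. Of them 3 passed in undivided bulge (2.65%, against 10.5% of all genes), all lower: Naf1, an assembly factor of box H/ACA particles (-1.21 ± 0.35, adjusted p = 0.0259), Mak16 (-0.97 ± 0.29, adjusted p = 0.0305) and Nol8 (-0.90 ± 0.28, adjusted p = 0.0387). In divided bulge 1 passed (0.885%, against 8.87%), Rsl1d1 (-0.78 ± 0.23, adjusted p = 0.0328). In non-bulge cells 102 of the 113 were above 0 at PD25 against PD21, with a median of 0.30 and 0 passing. Of the 42 cytosolic ribosomal protein genes tested (79 listed), 0 passed in any comparison, and their medians at PD25 were -0.13 and -0.17 in the 2 bulge fractions. In undivided bulge against non-bulge at PD21 they did not follow the 28 genes, with a median of 0.12. Between the ages their median was -0.21 in undivided and -0.35 in divided bulge, where all 42 lay below 0. These age medians did not hold within both sets of arrays. In the wide and the narrow set they were -0.16 and 0.26 in undivided bulge, and -0.12 and 0.06 in divided bulge.

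Among 24 tested genes of MYC-regulated metabolism and growth, Tfrc, the transferrin receptor gene that supplies dividing cells with iron, had the pattern of Mycl at PD21. It was lower in undivided bulge (-1.93 ± 0.28, adjusted p = 3.32e-05) and higher in divided than in undivided bulge (1.87 ± 0.28, adjusted p = 0.000105), and the division effect changed between the ages (-1.81 ± 0.40, adjusted p = 0.0212). Of the 24 genes, 2 passed in undivided bulge against non-bulge at PD21 (8.33%, against 11% of all genes). In divided against undivided bulge at PD21 Tfrc alone passed (4.17%, against 8.28%), as it did for the division effect (4.17%, against 1.18%). Of the 11 other MYC network genes tested, 1 passed in undivided bulge at PD25 (9.09%, against 10.5% of all genes). It was Nsun2, an RNA methyltransferase gene induced by MYC (-1.14 ± 0.25, adjusted p = 0.00285).

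Proliferation and handling genes are given beside these shifts. The 31 proliferation genes tested had a median of 0.48 in undivided and -0.01 in divided bulge at PD25, where 30 and 15 of 31 lay above 0, so they did not share the sign of the ribosome genes in undivided bulge. Of 24 immediate early genes, which cell dissociation is known to induce, 5 were lower in undivided (20.8%, against 4.83% of all genes) and 4 in divided bulge at PD25 (16.7%, against 3.25%), with medians of -0.52 and -0.50. Fos was lower by 2.03 ± 0.51 and 2.17 ± 0.51 (-2.03, adjusted p = 0.00945, and -2.17, adjusted p = 0.00667). The summed signal of that list was 87045 to 119912 in non-bulge cells at PD25, 63247 to 91733 in undivided bulge and 58604 to 106009 in divided bulge. Its part in the ribosome gene values was not tested.

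Of the 35 genes, 22 had more than 1 probe set past the filter, which gave 31 further probe sets to set beside those standing for the genes. In divided bulge against non-bulge at PD25, 29 of those 31 had the sign of the probe set standing for their gene, and in undivided bulge 26. For PD25 against PD21 in non-bulge cells 23 did, and for divided bulge against non-bulge at PD21, where differences were small, 13.

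**Figure D5:**
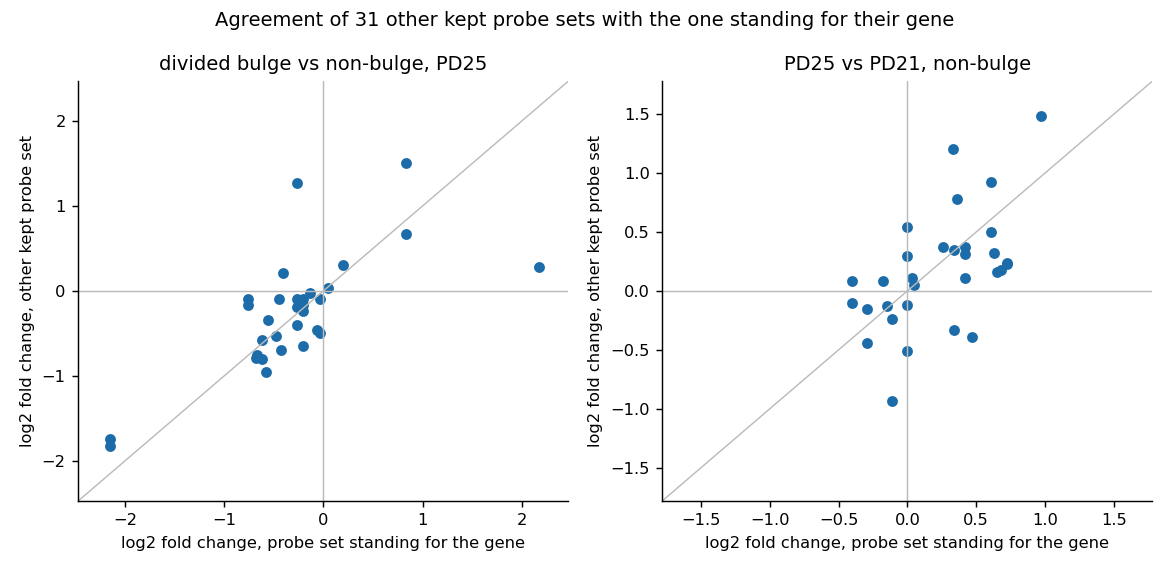
Log2 fold changes of the 31 further probe sets (vertical) against the probe set standing for the same gene (horizontal), for divided bulge against non-bulge at PD25 (left) and PD25 against PD21 in non-bulge cells (right), with the line of equality in grey. Points in the lower left and upper right share their sign, 29 of 31 on the left and 23 of 31 on the right.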

How the data were processed

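Total RNA (5 ng) from each of the 18 sorted fractions was amplified and hybridised to 1 array, per the labels' protocols. The deposited values are linear signal intensities made by the authors with GCOS, per the submitters' processing notes, which give no version, and the trimmed mean of every array was 500 (2% trimmed at each end). Differences in total RNA per cell are therefore not in the values. Here log2(signal + 16) was taken, and a probe set was kept if it exceeded its array's median on at least 3 of the 18 arrays. The platform annotation gave 34945 probe sets 1 gene symbol, 932 several and 9160 none, and where a gene had several, the one brightest on average was used. Comparisons were fitted on all 11569 genes and 6 groups with limma 3.58.1 (R 4.3.3), with a variance trend and Benjamini-Hochberg adjustment at 0.05, without the mouse. All limma tests were two-sided. There were 10 comparisons, and 2 differences of bulge effects between the ages were added after seeing the data, as were the array sets. The mouse, numbered in the titles, entered other fits as a fixed block within an age and a random block between ages. Deviations of fractions of the same mouse correlated at 0.07 to 0.46 over 18 pairs, and those of different mice at -0.26 to 0.13 over 36 pairs. The script was tested on simulated data. The 35 genes and all lists were chosen with earlier results of these data known. All 35 are named, and from each other list up to 3 genes per comparison that passed with the largest change could be named. Alternatives tried were the pseudocount, filter, probe set rule, scaling, variance trend, array weights, groups fitted, block, array sets and each array left out.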

Additional observations from a re-analysis of the deposited data

Results flagged for a closer look

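In 8 cases an effect had 1 sign in all 3 mice at PD21 and the opposite sign in all 3 mice at PD25. Each difference between the ages was tested with limma, and none passed in the fit by group alone.

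For divided minus non-bulge cells, 6 of the 35 genes were of this kind, where 4.98% of all genes were, and all 6 went from above 0 to below 0. The 3 non-bulge arrays of each age are shared by these 6 values. Noc2l differed by -1.05 ± 0.30 between the ages (adjusted p = 0.0786, 0.0225 with the block and 0.0394 with the set of arrays as a term), from 0.39, 0.69 and 0.03 in the PD21 mice to -0.65, -0.84 and -0.56 in the PD25 mice. Nhp2 differed by -1.26 ± 0.42 (adjusted p = 0.152), and Dkc1 by -0.79 ± 0.32 (adjusted p = 0.27). Rrp9 differed by -1.42 ± 0.69 (adjusted p = 0.423), Pes1 by -0.81 ± 0.36 (adjusted p = 0.345) and Fbl by -0.52 ± 0.36 (adjusted p = 0.679). A second Noc2l probe set past the filter measured 7.34, 7.90 and 7.48 in divided bulge at PD21, against 8.45, 7.23 and 8.52 in non-bulge cells. It was thus lower in PD21 mice 1 and 3. The further probe sets of Dkc1, Nhp2 and Pes1 did not keep 1 sign across the PD21 mice either. That of Fbl was higher in every PD21 mouse and lower in every PD25 mouse, but in PD21 mouse 1 both fractions measured 11.42 after rounding.

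For divided minus undivided bulge, 2 of the 35 genes were of this kind, where 5.46% of all genes were. Gnl3 differed by -1.27 ± 0.38 (adjusted p = 0.103), from 1.21, 0.75 and 0.21 in the PD21 mice to -0.90, 0.00 and -0.74 in the PD25 mice, where mouse 2 lies below 0 only before rounding. Nop16 went the other way, by 0.83 ± 0.64 (adjusted p = 0.688), from -0.34, -0.48 and -0.67 to 0.67, 0.13 and 0.20. For undivided minus non-bulge cells 0 of the 35 were, where 2.04% of all genes were.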

How the results depend on the processing

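Each count of the 35 genes that passed was recomputed under 32 settings, 18 of them leaving out 1 array. In 0 cases did a call change its sign, or a gene pass with the sign opposite to its main value. Signs of differences that did not pass were not followed. With 1 array left out, small medians of the 35 genes did change sign. They ran from -0.06 to 0.09 for undivided against non-bulge at PD21 and from -0.11 to 0.05 for divided against undivided bulge at PD25. With the mouse as a replicate block, the counts went from 3 to 6 (undivided against non-bulge, PD21), from 1 to 3 (divided against undivided, PD21), from 2 to 7 and from 4 to 9 (undivided and divided against non-bulge, PD25), from 0 to 1 (division effect between ages) and from 0 to 2 (divided bulge effect between ages). The block changed no other count of the 35. In the same order, the set of arrays as a term gave 5, 3, 7, 8, 1 and 1, and the mean of probe sets gave 5 and 4 at PD21 and 1 for the divided bulge effect. For undivided bulge at PD25 a stricter filter gave 4, quantile normalisation 5 and array weights 8. For divided bulge at PD25 quantile normalisation gave 7, and no filter, no variance trend or only the groups compared gave 2 each. A pseudocount of 64 or median centring gave 1 for the division effect. Within the narrow set the counts were 1 and 2 for undivided and divided bulge against non-bulge cells at PD25. Counts at PD21 in the narrow set, at PD25 in the wide set and between ages within a set are left out. They would rest on groups of 1 array. Fewer arrays enter these fits, and for the other settings the cause was not tested.

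Leaving out 1 array gave 1 to 4 for undivided bulge at PD21, 1 to 2 for divided against undivided bulge at PD21, 1 to 6 and 2 to 5 for undivided and divided bulge at PD25, 0 to 1 for the division effect, 1 throughout for divided bulge between ages and 0 throughout for the other 6 comparisons. For undivided bulge at PD25, 1 passed without its mouse 1 or 2 or non-bulge mouse 3 of PD25, 4 without non-bulge mouse 2 of PD21 and 6 without undivided mouse 3 of PD25. For divided bulge at PD25, 2 passed without any 1 non-bulge array of that age, divided mouse 3 of PD25, or undivided or divided mouse 2 of PD21. For undivided bulge at PD21, 1 passed without non-bulge mouse 2 or undivided mouse 3. For divided against undivided bulge at PD21, 2 passed without undivided mouse 3 of PD25, and for the division effect 1 without undivided mouse 3 of PD21 or divided mouse 2 of PD25. The next ranges leave out the fits within 1 set of arrays, with the set as a term and with the mean of probe sets. Under the other settings, the median of the 35 genes stayed between -0.54 and -0.33 for undivided and between -0.52 and -0.31 for divided bulge at PD25. For non-bulge cells between ages it stayed between 0.38 and 0.52. Within the wide and the narrow set it was -0.67 and -0.37 for undivided and -0.65 and -0.31 for divided bulge at PD25, and 0.49 and 0.35 for non-bulge cells between ages. Over all genes, the block moved the PD21 counts from 1278 to 1926 (undivided), from 21 to 49 (divided) and from 958 to 1533 (divided against undivided). It moved the division effect from 137 to 506 and the divided bulge effect from 189 to 451. Array weights moved undivided bulge at PD25 from 1220 to 1922. With 3 mice per group and amplified RNA, small shifts of single genes were at the edge of what could be called, and Mycn lay below the median on every non-bulge array, so its fold depends on the pseudocount.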
